A study of Mus musculus with 8 samples.

Results

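Genes known from neurons and from neuroendocrine cells were followed in cultured mouse fetal liver cells with and without a Bmi1 transgene. The set held 38 listed genes out of the 18193 genes that had at least 1 probe set with a single gene symbol, and all 38 were on the array. They were listed by name after an earlier look at the same comparison, in which Crmp1, Ina and Lgi2 had passed the test and Crmp1 and Ina had been picked as the marker genes. The values of the members between the 2 groups are therefore a description, and no p-value is attached to a member in that contrast.

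The cells were hepatoblasts, the bipotent progenitors of hepatocytes and bile duct cells, from the liver of Ink4a-Arf-null mouse embryos at embryonic day 14.5. All samples lacked Ink4a-Arf, the locus of 2 cell cycle inhibitors that the Polycomb protein Bmi1 represses in many cell types. Dlk-positive cells were sorted with magnetic beads, transduced with Bmi1 or, for Control, with EGFP, and grown with 50 ng/ml HGF and 20 ng/ml EGF. Flow cytometry was used at day 28 to isolate the transduced cells, and each array took the RNA of 10000 cell equivalents, amplified in 2 cycles. There were 4 arrays labelled Bmi1 and 4 labelled Control, from 4 experiments that the submitters describe as independent, so every array labelled Bmi1 has a partner with the same replicate number.

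Neurons carry their characteristic proteins in long processes, and the members belong to that machinery. Collapsin response mediators and stathmins act on microtubules in growing axons, neurofilament proteins such as alpha-internexin fill the axon, kinesins carry vesicles along it, and SNARE proteins with synaptotagmins and Doc2 proteins fuse vesicles at its end. Neuroendocrine cells share the fusion machinery and store peptides together with granins in dense-core granules. Outside the nervous system many such genes are held down by the repressor REST, which binds the RE1 element, and Polycomb complexes are known to occupy many developmental genes that are silent in a tissue.

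The signals are on the linear scale of the authors, with a 2% trimmed mean of 100 on each array, and the signals of different genes are not set against each other. The summed signals of marker lists do add different probe sets, so the brightest genes weigh most in them. A signal was counted as above background where it passed the 95th percentile of 27 Bacillus control probe sets on its array, a level between 4.09 and 9.97. The main Bmi1 probe set was lower on the arrays labelled Bmi1, at 197 to 328, against 306 to 802 on those labelled Control, and Cdkn2a, the gene of the Ink4a-Arf locus, was above background on 1 of 4 Bmi1 arrays and 0 of 4 Control arrays. Both Bmi1 probe sets were lower on the Bmi1 array of every pair, and the main one was called lower with the replicate block. Whether the Bmi1 probes lie in the transgene is not stated, and an exchange of labels was not tested. The groups are therefore named by their labels throughout. Hepatocyte markers were above background on all 8 arrays for 8 of 9 genes. The Control 1 array stood apart with a Gapdh 3′ to 5′ signal ratio of 3.10, against 1.65 to 1.96 on the other arrays.

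Promoter sequences are shown for the 3 members that passed the test without a block, to set the sequence before their starts beside their signals. The windows are the 250 bases before the annotated gene start in RefSeq on the GRCm38.p6 build, 5′ to 3′ on the strand of the gene, in lower case. Capitals mark GGGCGG, the GC box that Sp factors bind, and CAGCACC, a core part of the RE1 element, each searched on both strands so that CCGCCC and GGTGCTG are their reverse forms. Crmp1 has 2 annotated starts.
Crmp1, first window, chr5:37241808-37242057, plus strand: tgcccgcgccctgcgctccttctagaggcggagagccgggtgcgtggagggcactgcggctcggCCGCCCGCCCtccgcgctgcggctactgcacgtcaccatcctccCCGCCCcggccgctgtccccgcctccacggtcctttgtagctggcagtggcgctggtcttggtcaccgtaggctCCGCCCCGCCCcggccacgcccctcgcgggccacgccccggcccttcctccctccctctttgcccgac
Crmp1, second window, chr5:37245514-37245763, plus strand: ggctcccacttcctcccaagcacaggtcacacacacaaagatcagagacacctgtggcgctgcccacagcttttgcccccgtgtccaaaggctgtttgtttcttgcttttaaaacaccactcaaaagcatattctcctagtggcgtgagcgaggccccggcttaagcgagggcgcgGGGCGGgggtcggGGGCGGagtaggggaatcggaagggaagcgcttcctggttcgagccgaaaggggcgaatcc
Ina, chr19:47014431-47014680, plus strand: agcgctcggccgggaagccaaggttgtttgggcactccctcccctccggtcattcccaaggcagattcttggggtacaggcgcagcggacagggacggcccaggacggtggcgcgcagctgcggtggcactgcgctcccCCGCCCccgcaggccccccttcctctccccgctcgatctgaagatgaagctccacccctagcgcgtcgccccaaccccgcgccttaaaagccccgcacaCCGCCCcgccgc
Lgi2, chr5:52566307-52566556, minus strand: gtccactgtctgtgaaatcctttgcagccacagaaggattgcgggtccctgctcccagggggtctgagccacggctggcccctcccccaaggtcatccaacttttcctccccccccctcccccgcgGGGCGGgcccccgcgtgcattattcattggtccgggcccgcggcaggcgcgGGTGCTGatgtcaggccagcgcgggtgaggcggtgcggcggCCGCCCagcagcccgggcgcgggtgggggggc

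GC boxes stood in all 4 windows, and the CAGCACC core stood in that of Lgi2 alone among them. RefSeq windows were at hand for 23 of the 38 members, 29 windows in all. GGGCGG was present in 58.6% of the member windows, against 59.0% of the windows of all tested genes. It stood in all 8 windows of the 6 separated members described next that had one, some of them overlapping, and in 42.9% of the windows of the other members. CAGCACC was present in 7 of the 29 member windows, 24.1%, against 6.11% of the windows of tested genes, and 6 of those 7 windows belonged to members outside the separated group. Crmp1, L1cam, Kif1a and Elavl4 have several windows, and each window was counted. The split into separated and other members uses the group contrast, by which the members were chosen. Nothing is therefore read from these shares. Letters in a window are a description and show no binding.

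**Figure D1:**
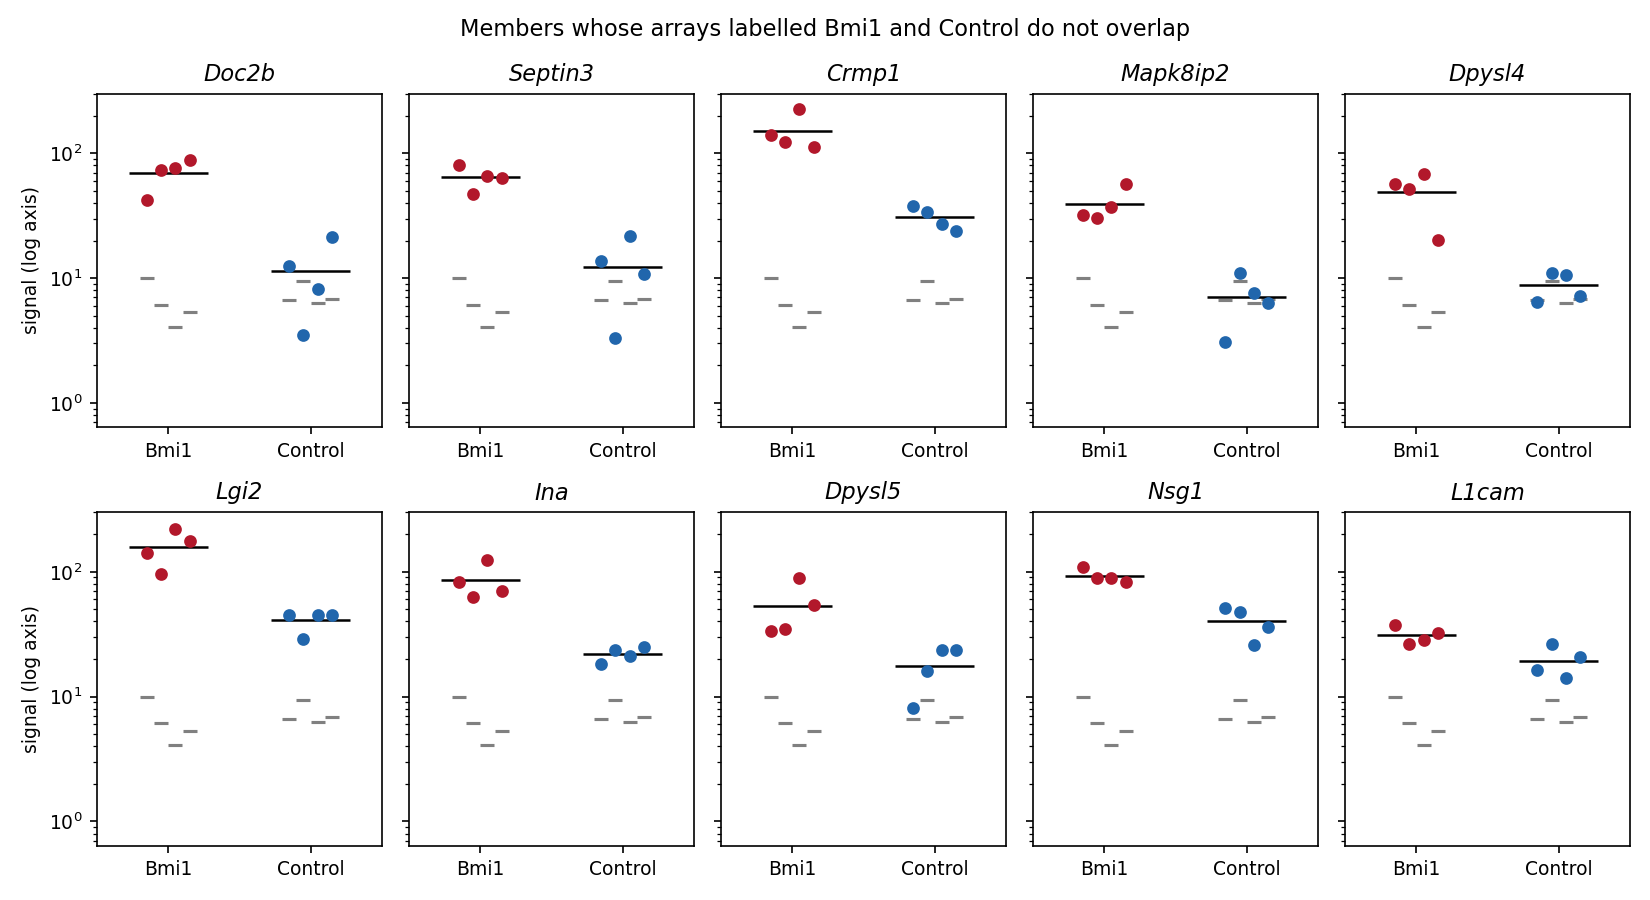
Signal on a log axis for the 10 members whose 4 arrays labelled Bmi1 (red, left) lie above all 4 arrays labelled Control (blue, right). Black bars are means and grey ticks the background of each array. Crmp1 lies between 113 and 228 on Bmi1 arrays and between 23.7 and 37.8 on Control arrays.

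Of the 38 members, 10 had every Bmi1 array above every Control array in deposited signal. They were Crmp1, Ina, Lgi2, Doc2b, Septin3, Mapk8ip2, Dpysl4, Dpysl5, Nsg1 and L1cam, and all 10 were above background on 4 of 4 Bmi1 arrays. Among all 10916 tested genes, 4.83% were separated in either direction and 3.01% in that direction. No member was separated in the other direction. The choice of members used this contrast, so nothing is read from the count.

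Of the 5 collapsin response mediators, Crmp1, Dpysl4 and Dpysl5 were separated. Crmp1, which links semaphorin signals to the axonal cytoskeleton, had signals of 141, 124, 228 and 113 on the arrays labelled Bmi1, against 37.8, 34.1, 27.3 and 23.7 on the arrays labelled Control. The groups were far apart, with the lowest Bmi1 array well above the highest Control array (log2 difference 2.06, SE 0.27), and the ratio within pairs of equal number was 3.73, 3.62, 8.35 and 4.75. Dpysl4, a relative from the same family, had signals of 56.2, 51.5, 67.8 and 20.4 on the arrays labelled Bmi1, against 6.41, 11.1, 10.6 and 7.15 on the arrays labelled Control. Its Control signals sat at background, where 3 of 4 arrays passed it, and Bmi1 replicate 4 was the lowest of its group (log2 difference 1.91, SE 0.37, and 1.26 with a pseudocount of 16). Dpysl5, the most divergent family member, had signals of 33.5, 34.8, 89.9 and 54.3 on the arrays labelled Bmi1, against 8.04, 16, 23.5 and 23.4 on the arrays labelled Control. All 4 pairs ran the same way (log2 difference 1.30, SE 0.36), and 1 of its 2 probe sets was separated.

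Dpysl2 and Dpysl3 of the same family did not share this pattern. Dpysl2, which binds tubulin and is also made in many cells outside neurons, averaged 1112 ± 191 on Bmi1 arrays and 1009 ± 135 on Control arrays (SD, n = 4 each, log2 difference 0.06, SE 0.16), and the groups overlapped. Dpysl3, which marks immature neurons and is also known from mesenchymal cells, had signals of 113, 192, 22.1 and 18.7 on the arrays labelled Bmi1, against 423, 274, 69.1 and 28.7 on the arrays labelled Control. Each Bmi1 array was below its partner of equal number, with log2 differences of -1.96, -0.59, -1.58 and -0.56. The groups overlapped, and the spread within each group was wider than the difference (log2 difference -1.17, SE 0.96 without a block). Much of that spread lay between replicates 1 and 2 and replicates 3 and 4, as given below. Dpysl3 was not called with the replicate block either.

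Among the neurofilament and microtubule genes, Ina and Septin3 were separated. Ina, which encodes the neurofilament protein alpha-internexin, had signals of 83.1, 62.4, 125 and 69.7 on the arrays labelled Bmi1, against 18.1, 23.7, 21.0 and 25.2 on the arrays labelled Control. The Control arrays lay in a narrow band above background, and all 3 probe sets of Ina were separated (log2 difference 1.67, SE 0.24). Septin3, a GTPase of presynaptic terminals, had signals of 81.2, 46.8, 65.4 and 63.8 on the arrays labelled Bmi1, against 13.6, 3.31, 21.6 and 10.8 on the arrays labelled Control. Control replicate 2 was below background, and 2 of the 3 probe sets were separated (log2 difference 2.12, SE 0.38, and 1.40 with the mean of all probe sets). Stmn3, a neuronal stathmin, averaged 20.1 ± 6.51 on Bmi1 arrays and 15.7 ± 3.76 on Control arrays (SD, n = 4 each), with overlapping groups.

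Map2, which stabilises dendritic microtubules, had signals of 131, 88.0, 35.2 and 30.8 on the arrays labelled Bmi1, against 664, 100, 31.2 and 26.5 on the arrays labelled Control. A single array, Control replicate 1, set the group means apart. The log2 difference was -2.41 in pair 1 and -0.26, 0.07 and 0.16 in pairs 2, 3 and 4. Without that array the log2 difference of the groups was 0.37. The groups then hold unequal parts of the replicate sets, between which Map2 differs as given below, so this value shows no higher level on Bmi1 arrays. Nefl, Nefm, Mapt, Tubb3 and Stmn2 did not reach the level needed for a test. Among them Tubb3, with signals up to 22.2 on Bmi1 arrays and up to 15.8 on Control arrays, was above background on 4 of 4 and 3 of 4 of them.

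In the transport group, Mapk8ip2, a scaffold that couples JNK signalling to kinesin cargo, had signals of 32.2, 30.3, 36.9 and 56.2 on the arrays labelled Bmi1, against 3.09, 11.1, 7.62 and 6.26 on the arrays labelled Control. Control signals passed background on 2 of 4 arrays, and 3 of its 5 probe sets were separated (log2 difference 1.93, SE 0.32). The size of this difference rests on Control signals near background, and it was 1.18 with a pseudocount of 16 and 1.05 with the mean of all probe sets. Kif5c, a heavy chain of conventional kinesin, averaged 267 ± 34.8 on Bmi1 arrays and 183 ± 65.5 on Control arrays (SD, n = 4 each), with overlapping groups. It was higher on the Bmi1 array in 4 of 4 pairs, by a log2 difference of only 0.04 in pair 1. A second Kif5c probe set, above background on 4 of 4 arrays of each group, was higher in 3 of 4 pairs (-0.30 in pair 1). Kif1a, a carrier of synaptic vesicle precursors, averaged 34.3 ± 14 on Bmi1 arrays and 22.5 ± 10.6 on Control arrays and overlapped too.

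Of the vesicle and fusion genes, Doc2b was separated. Doc2b, a calcium sensor for exocytosis that also acts in insulin and catecholamine secretion, had signals of 42.4, 73.5, 75.5 and 88.4 on the arrays labelled Bmi1, against 12.5, 3.48, 8.21 and 21.5 on the arrays labelled Control. Both of its probe sets were separated, and 3 of 4 Control arrays were above background (log2 difference 2.31, SE 0.38). Stx1a, a SNARE of the plasma membrane, averaged 125 ± 23.6 on Bmi1 arrays and 97.7 ± 8.77 on Control arrays (SD, n = 4 each), and the groups overlapped. Syn1, which tethers synaptic vesicles, averaged 25.7 ± 4.88 on Bmi1 arrays and 17.5 ± 7.49 on Control arrays and overlapped as well. Cacna1b, the pore of the N-type calcium channel, averaged 44.9 ± 19.4 on Bmi1 arrays and 26 ± 16.6 on Control arrays, higher on the Bmi1 array in 4 of 4 pairs. Syt11, a synaptotagmin that does not sense calcium, had the opposite order on the probe set that stands for it. Its signals were 36.8, 30.4, 50.7 and 30.5 on the arrays labelled Bmi1, against 105, 71.0, 58.4 and 39.5 on the arrays labelled Control. Each Bmi1 array was below its partner, and the groups overlapped (log2 difference -0.84, SE 0.32). The other Syt11 probe sets had log2 differences of 0.02, -0.38, -0.36 and 0.05, and in each of them some pairs ran the other way.

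Snap25, the partner SNARE of Stx1a, and Syp, an abundant protein of the synaptic vesicle membrane, were not tested. Snap25 lay between 4.11 and 21.8 on Bmi1 arrays and between 2.14 and 11.9 on Control arrays, while Syp reached 8.64 on Bmi1 arrays and 36.9 on Control arrays. That Syp probe set passed background on 1 of 4 Bmi1 and 2 of 4 Control arrays. Its second probe set passed on 3 of 4 and 4 of 4, with means of 8.41 and 10.1 and overlapping groups. None of the 4 granins, Chga, Chgb, Scg2 and Scg3, was tested either. Chga, the usual marker of neuroendocrine granules, had signals of 12.1, 5.58, 17.0 and 11.6 on the arrays labelled Bmi1, against 4.09, 2.45, 10.1 and 5.82 on the arrays labelled Control. Its Bmi1 array was the higher one in 4 of 4 pairs, but only 3 of 4 Bmi1 arrays and 1 of 4 Control arrays passed background and the groups overlapped.

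The adhesion genes differed among themselves. L1cam, which guides axon growth, had signals of 37.3, 26.4, 28.4 and 32.5 on the arrays labelled Bmi1, against 16.5, 26.3, 14 and 20.9 on the arrays labelled Control. The gap was narrow, since Bmi1 replicate 2 and Control replicate 2 nearly touched at 26.4 and 26.3 (log2 difference 0.54, SE 0.26). On the centred log2 scale of the test this pair ran the other way (-0.08), so L1cam was separated on the deposited signals only. Ncam1, the neural cell adhesion molecule, which is also known from hepatic stellate cells, had signals of 250, 300, 141 and 59.2 on the arrays labelled Bmi1, against 629, 318, 133 and 105 on the arrays labelled Control, with wide overlap and none of its 7 probe sets separated. Gap43, a growth cone protein, was above background on 1 of 4 arrays of each group.

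Among the RNA-binding members, Celf4, a splicing and translation regulator of neurons, averaged 38.3 ± 7.53 on Bmi1 arrays and 25.1 ± 11.4 on Control arrays (SD, n = 4 each) with overlapping groups. Elavl3 and Elavl4, which stabilise neuronal mRNAs, were not tested. Elavl3 was above background on 1 of 4 Bmi1 arrays and 2 of 4 Control arrays, and Elavl4 on 3 of 4 Bmi1 arrays and 0 of 4 Control arrays.

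Of the remaining neuronal proteins, Lgi2, a secreted protein of synapses, had signals of 142, 96.6, 221 and 176 on the arrays labelled Bmi1, against 45.0, 29.1, 44.7 and 44.7 on the arrays labelled Control. Both of its probe sets were separated, and 3 of the 4 Control arrays were close together near 45.0 (log2 difference 1.75, SE 0.26). Nsg1, a protein of neuronal endosomes, had signals of 110, 89.2, 88.7 and 82.6 on the arrays labelled Bmi1, against 51.0, 47.3, 26 and 36.2 on the arrays labelled Control. Its second probe set was not separated (log2 difference 1.09, SE 0.26). Sez6l2, a neuronal membrane protein, averaged 81.2 ± 26.5 on Bmi1 arrays and 40.7 ± 21.7 on Control arrays (SD, n = 4 each), higher on the Bmi1 array in 4 of 4 pairs with groups that overlapped. Uchl1, a ubiquitin hydrolase abundant in neurons and neuroendocrine cells, averaged 228 ± 78.4 on Bmi1 arrays and 134 ± 32.7 on Control arrays and overlapped.

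**Figure D2:**
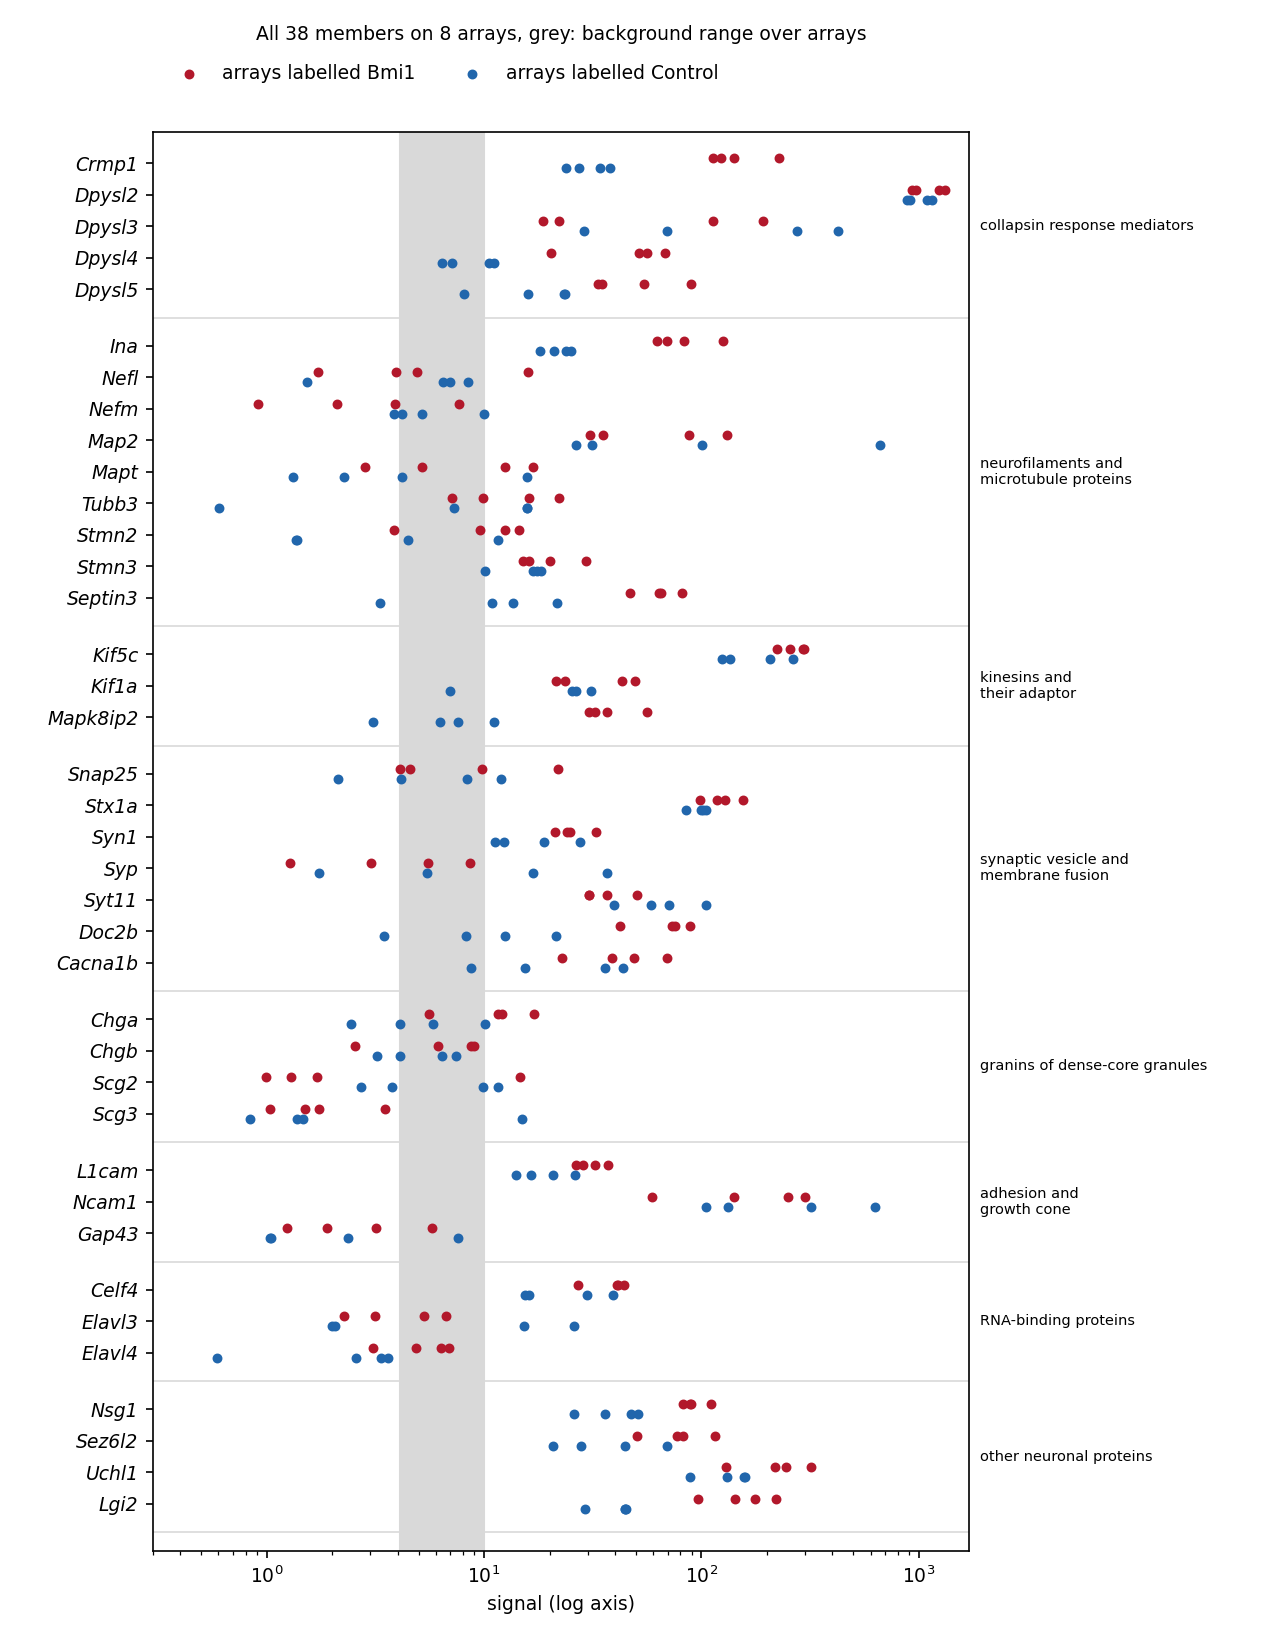
Signals of all 38 members on the 8 arrays, on a log axis, grouped by role, with arrays labelled Bmi1 (red) drawn above those labelled Control (blue) for each gene. The grey band is the range of background over arrays, 4.09 to 9.97. The 14 members that were not tested, the granins among them, have means over the 8 arrays of at most 11.9, and single arrays above the band reach 36.9 for Syp.

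Across the set, 25 of 38 members were above background on 4 of 4 Bmi1 arrays and 19 on 4 of 4 Control arrays. The marker genes Crmp1 and Ina were above it on all 8 arrays, and so was Map2, while the granins did not reach the level for a test, so the set is called by its listed genes and not by a cell type. A level filter at the 40th percentile of mean level left 24 members for the test across genes. The lowest mean signal among them was 17.9 (Stmn3), and the highest among the 14 left out was 11.9 (Tubb3). The filter used means of log2 values, so these signals do not show how near a gene lay to it. All 24 would pass on the Bmi1 arrays alone and 17 on the Control arrays alone, so 7 were tested only because of the arrays on which they are high, and the counts over the 24 support nothing. Of the 24, 20 had the higher mean on Bmi1 arrays, against 45.9% of all tested genes, and the median log2 difference was 0.59, against -0.03 over all tested genes. The limma test called 3 of the 24, Crmp1, Ina and Lgi2, all higher, against 0.165% of all tested genes called, 0.11% higher and 0.055% lower. With the replicate number as a block it called 9, each separated member but L1cam, against 1.36% of all tested genes called higher and 1.95% lower. With the replicate set as a block it called 9 as well, against 1.75% of all tested genes called, 0.87% higher and 0.879% lower, and no member was called lower in these models. The 3 calls fell to 2 without Control 4 and to 0 without any other single array, and with the block the count was 3 to 6 when single arrays were left out. In bulk RNA of this kind, more cells that make a transcript and more transcript per cell cannot be told apart.

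**Figure D3:**
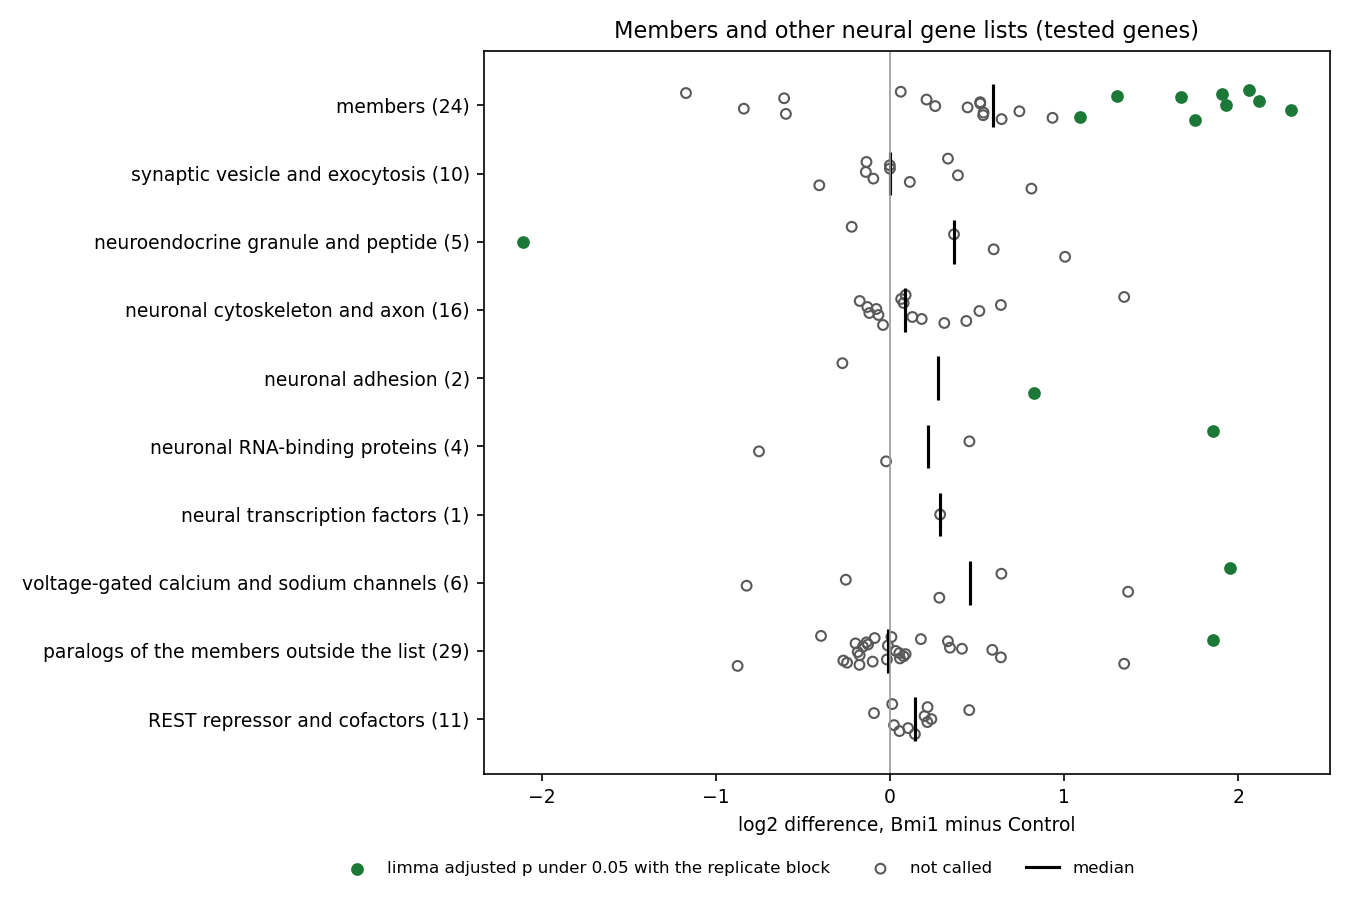
Log2 difference, Bmi1 minus Control, of each tested gene (points) in the member set and in lists of other neural genes, paralogs and REST cofactors, with the number tested in parentheses. Filled points passed limma's test with the replicate block and black bars are medians. The members' median is 0.59, that of the paralogs -0.01. The members were listed after a look at this contrast, so nothing is read from the gap between medians.

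Whether other genes of the same machinery differed was asked of 138 neural genes outside the member set. A probe set was found for 131, of which 44 were tested. Of the 44, 25 had the higher mean on Bmi1 arrays and 19 the lower, with a median log2 difference of 0.10. Genes that had risen in the earlier look could already have been placed among the members. The lists outside the set are thus no independent comparison for it. None passed limma's test without a block, where 9 of the 44 fell under an unadjusted p of 0.05, against a share of 7.81% of all tested genes. With the replicate block 3 rose and 1 fell, against 3.32% of all tested genes called. Of the 44, 4 were separated higher and 2 lower, against 3.01% and 1.81% of all tested genes.

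Celf5, a relative of Celf4 that binds RNA in neurons, had signals of 87.8, 35.8, 54.0 and 71.3 on the Bmi1 arrays, against 15, 10.4, 10.2 and 16.2 on the Control arrays. It rose with the block (log2 difference 1.86, limma adjusted p = 0.0114) and did not pass without it (adjusted p = 0.0597). Its mean Control level was below that of Stmn3, which fails the level filter on the Control arrays alone. Celf5 was thus tested only because of the arrays on which it is high, and its call is a description. Nlgn2, a postsynaptic adhesion protein of inhibitory synapses, averaged 158 ± 40.3 on Bmi1 arrays and 81.2 ± 8.49 on Control arrays (SD, n = 4 each) and rose with the block (log2 difference 0.82, limma adjusted p = 0.0427, 0.193 without). Cacna1g, a T-type calcium channel, averaged 83.6 ± 39.2 on Bmi1 arrays and 25.1 ± 26 on Control arrays and rose with the block (log2 difference 1.95, limma adjusted p = 0.0325, 0.411 without).

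Ddc, the decarboxylase that makes dopamine and serotonin and is also found in liver, went the other way. Its signals were 111, 98.7, 38.2 and 69.4 on the Bmi1 arrays, against 261, 468, 205 and 390 on the Control arrays. It fell with the block (log2 difference -2.11, limma adjusted p = 0.00629, 0.083 without). The groups of Ddc, Celf5 and Nlgn2 did not overlap, while those of Cacna1g did. Over the block combined with other settings, limma's adjusted p ranged between 0.000166 and 0.0295 for Ddc and between 0.000588 and 0.0499 for Celf5, so both kept their calls. It ranged between 0.00968 and 0.281 for Nlgn2 and between 0.00494 and 0.123 for Cacna1g, whose calls were lost in some of these settings.

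In the remaining lists the genes of smallest p did not pass either model. Prph, a neurofilament-type protein of peripheral neurons that assembles with other neurofilaments, averaged 38.7 ± 7.42 on Bmi1 arrays and 14.6 ± 11.8 on Control arrays (log2 difference 1.34, limma adjusted p = 0.343, 0.0823 with the block). Like Celf5, Prph would fail the level filter on the Control arrays alone. Tubb4a, a brain beta-tubulin, averaged 183 ± 44.6 on Bmi1 arrays and 114 ± 43.8 on Control arrays (adjusted p = 0.571, 0.0563 with the block, limma). With the block and other settings combined, the adjusted p of Prph reached 0.0172 at its lowest and that of Tubb4a 0.0283, and at their highest they were 0.248 and 0.183. Dnm1, which pinches off synaptic vesicles, had a log2 difference of 0.81 (limma adjusted p = 0.712, 0.109 with the block), and Napb, which recycles SNAREs in brain, one of -0.41 (0.787, 0.389 with the block). Sox11, the only tested gene among the neural transcription factors, had a log2 difference of 0.29 (limma adjusted p = 0.947, 0.241 with the block).

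Genes of the members' own families outside the set were counted as well. Of 54 listed paralogs, 29 were tested, 14 with the higher and 15 with the lower mean on Bmi1 arrays, at a median log2 difference of -0.01. None passed limma's test without a block, where 3 fell under an unadjusted p of 0.05 beside the 7.81% of all tested genes, and 1, Celf5, passed with it.

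Rest, which encodes the repressor of many neuronal genes, had signals of 342, 339, 476 and 269 on the Bmi1 arrays, against 440, 303, 331 and 265 on the Control arrays. The groups overlapped fully (log2 difference 0.01, SE 0.23, limma adjusted p = 0.997, 0.977 with the block). Of the 11 tested genes in the list of Rest and its cofactors, 10 had the higher mean on Bmi1 arrays, against 45.9% of all tested genes, and none passed either model, and no gene of the list reached an unadjusted p of 0.05 when the block was left out. Rcor2 had a log2 difference of 0.45 (limma adjusted p = 0.869) and Sin3a one of 0.20 (0.881), and Sin3a was the 1 gene of the list whose groups did not overlap.

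Marker lists of the cell types that the cultures could hold were read on the same arrays. None of their genes passed limma's test without a block. The 5 biliary genes all had the higher mean on Bmi1 arrays, with a summed signal of 4032 to 4351 on Bmi1 arrays and 2174 to 3301 on Control arrays and all 5 above background on all 8 arrays. Epcam (log2 difference 0.99, limma adjusted p = 0.0222 with the replicate block, 0.173 without) and Cdh1 (0.51, 0.0254 with the block, 0.312 without), both epithelial adhesion genes, rose with the block and also with the replicate set as a block, and 3 of the 5 genes were separated. Of the 9 hepatocyte and hepatoblast genes, 7 had the lower mean on Bmi1 arrays, and the list summed to 16898 to 28102 on Bmi1 arrays and 19926 to 30181 on Control arrays. None of the 9 passed a model, 3 reached an unadjusted p of 0.05, and Cps1, a urea cycle enzyme, was separated in the lower direction (log2 difference -1.56).

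All 9 fibroblast and stellate genes had the lower mean on Bmi1 arrays, at a median log2 difference of -1.04 and a summed signal of 3566 to 7724 on Bmi1 arrays and 4809 to 14830 on Control arrays. Acta2, the smooth muscle actin of activated stellate cells, fell with the replicate block (log2 difference -1.11, limma adjusted p = 0.0405, 0.78 without) and did not pass with the replicate set as a block (0.0599). The glial and neural crest sums overlapped, at 592 to 982 on Bmi1 arrays and 488 to 750 on Control arrays, with 4 of 9 genes above background on all 8 arrays, Cdh19 on none, and S100b, Ngfr and Foxd3 on at most 4. Its 4 tested genes split into 2 with the higher and 2 with the lower mean, and 1 of them, the myelin gene Mbp, rose with the replicate block (log2 difference 0.87, limma adjusted p = 0.0128, 0.369 without) but did not pass with the replicate set as a block (0.0517).

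The endothelial list summed to 219 to 339 on Bmi1 arrays and 108 to 228 on Control arrays, with 2 of 6 genes above background throughout and Pecam1 and Tek on none. Its only tested gene, Egfl7, rose with the replicate block (log2 difference 0.95, limma adjusted p = 0.0207, 0.291 without) and with the replicate set as a block. Macrophage sums overlapped, at 171 to 516 on Bmi1 arrays and 267 to 679 on Control arrays, with 4 of 5 genes above background on all 8 arrays, Ptprc on at most 4, and no gene passing any of these models. The part of these cells in the members' values was not tested.

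**Figure D4:**
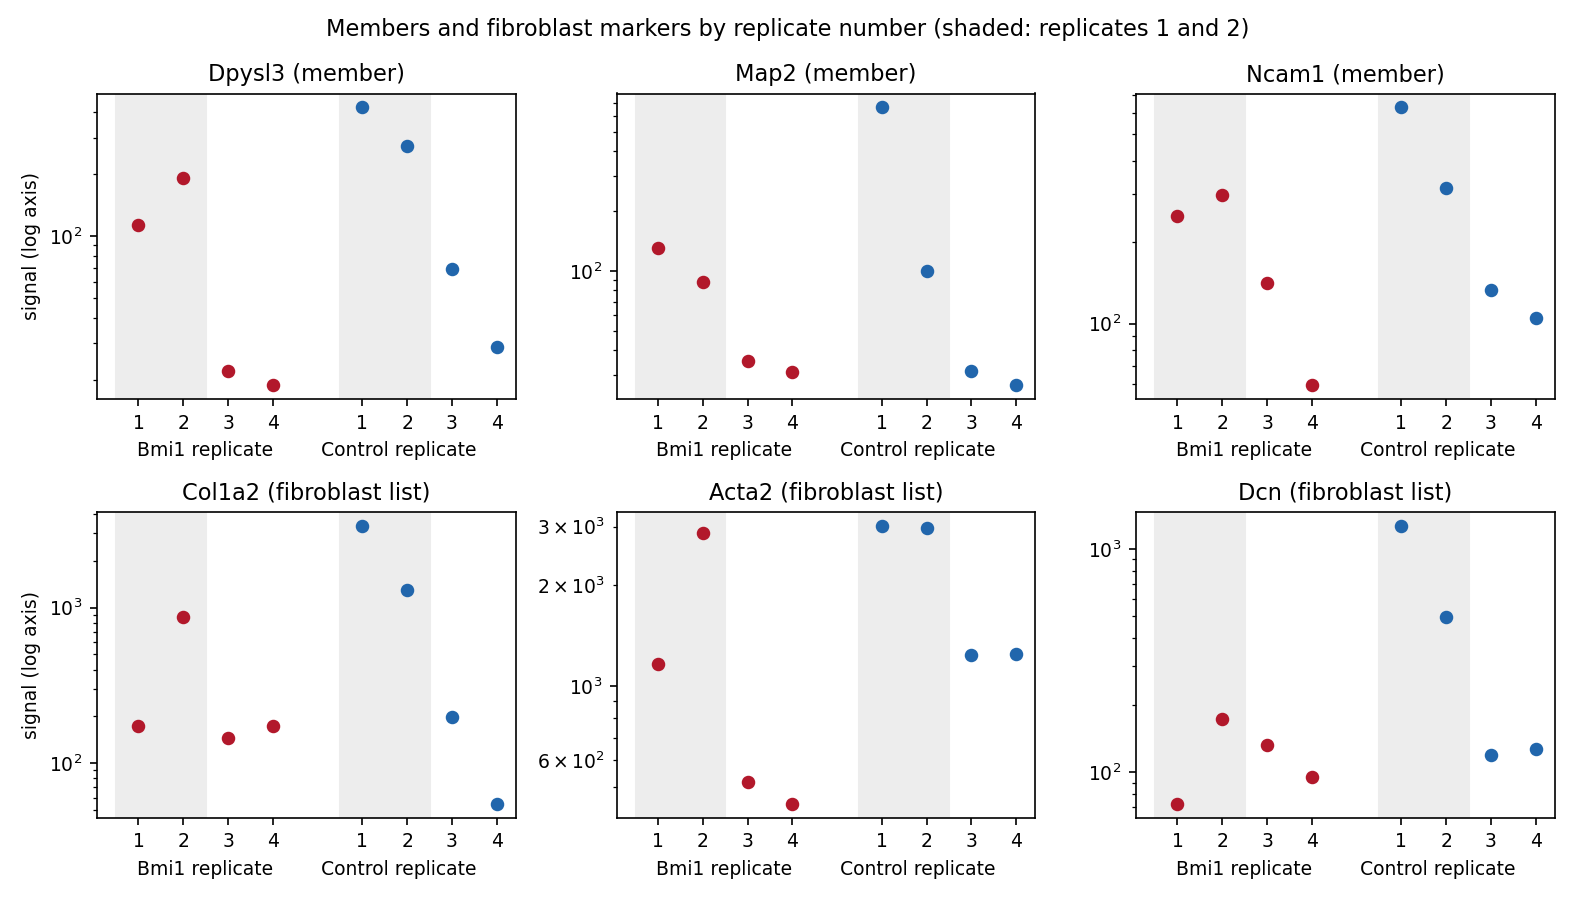
Signal on log axes by replicate number for Dpysl3, Map2 and Ncam1 (top) and 3 fibroblast markers (bottom), arrays labelled Bmi1 in red on the left and Control in blue on the right, replicates 1 and 2 shaded. The markers, Col1a2, Acta2 and Dcn, were picked from a list of 9, in which Des and Vim ran the other way. Between the replicate sets, Dcn was not called with the group in the model (limma adjusted p = 0.0874). It passed on the means of experiments (0.0260). In the top panels all 4 arrays of replicates 1 and 2 lie above all 4 of replicates 3 and 4.

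A contrast that the choice of members did not use was that between replicates 1 and 2 and replicates 3 and 4, fitted with the group in the model. The test called 6 of the 24 tested members, 3 higher and 3 lower, against 24.5% of all tested genes, 12.3% higher and 12.1% lower, so the members' share is close to that of all genes. Dpysl3 averaged 251 in replicates 1 and 2 and 34.7 in replicates 3 and 4 (log2 difference 2.83, SE 0.29, limma adjusted p = 0.00144). Map2 averaged 246 in replicates 1 and 2 and 30.9 in replicates 3 and 4 (log2 difference 2.40, SE 0.54, limma adjusted p = 0.0143). Ncam1 averaged 374 in replicates 1 and 2 and 110 in replicates 3 and 4 (log2 difference 1.81, SE 0.30, limma adjusted p = 0.00532). For all 3 the sets did not overlap. This contrast sets 2 experiments against 2, and the fit counts both arrays of an experiment as independent, which makes its p-values too small where they are alike. With the experiment as a random block (consensus correlation 0.24), chosen after seeing the data, limma called 4 members, against 15.1% of all tested genes, and on the mean of the 2 arrays of each experiment it called 3, against 7.05%. Dpysl3, Map2 and Ncam1 passed in both of these and in the other 16 settings tried, with adjusted p up to 0.0172, 0.0461 and 0.0325 over all 18.

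Cacna1b (-1.09, limma adjusted p = 0.0231), Dpysl5 (-0.80, 0.0434) and Sez6l2 (-0.75, 0.0469) were lower in replicates 1 and 2 on the log2 scale, and these 3 calls were lost on the means of experiments and in several other settings, with adjusted p up to 0.189, 0.259 and 0.181. Crmp1, Ina and Lgi2 did not pass (adjusted p = 0.626, 0.670 and 0.197). Marker lists differed along the same contrast. The hepatocyte sums did not overlap, at 16898 to 21799 in replicates 1 and 2 and 24588 to 30181 in replicates 3 and 4. The test called 6 of the 9 genes lower in replicates 1 and 2. Among them were Alb (log2 difference -0.58, limma adjusted p = 0.00615) and Afp (-0.46, 0.0064), which also passed on the means of experiments (0.0275 and 0.0335). Apoa1 was lower without a call (log2 difference -0.11). Tat and Cps1 ran the other way without a call (log2 difference 1.40 and 0.48). The fibroblast and stellate sums overlapped, at 4025 to 14830 in replicates 1 and 2 and 3566 to 5525 in replicates 3 and 4, highest on Control 1, with 7 of the 9 genes above background on all 8 arrays. Col1a2 (log2 difference 2.86, limma adjusted p = 0.0236, 0.0178 on the means of experiments) and Acta2 (1.69, 0.00389 and 0.0238) were among the 3 of 9 that were called higher in replicates 1 and 2. Des and Vim ran the other way without a call (log2 difference -0.53 and -0.08). With the experiment as a random block Acta2 passed (limma adjusted p = 0.0105) and Col1a2 did not (0.0632). Col3a1 and Dcn passed on the means of experiments (limma adjusted p = 0.0227 and 0.0260). They did not pass with the group in the model (0.120 and 0.0874) or with the random block (0.229 and 0.182). The part of these cells in the values of Dpysl3, Map2 and Ncam1 was not tested. A model with the product of replicate set and group called no gene (limma, 299 of 10916 at an unadjusted p under 0.05), and no member was at an unadjusted p under 0.05.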

How the data were processed

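The 8 Affymetrix mouse arrays, 4 labelled Bmi1 and 4 Control, measured mRNA levels. The deposited values are linear intensity per probe set, which the authors scaled to a 2% trimmed mean of 100 per array, as the values show; the software was not given in the sources used here, and intensities carry no read depth, so the 4 arrays per group limit the precision. Of 45101 probe sets, 64 are controls, 34945 have 1 symbol in the platform annotation, 932 several and 9160 none. The members and lists were chosen with earlier results of these data known.

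Values were taken as log2(value + 3.784), the median of all values divided by 4, and arrays centred on the median of tested genes. A gene was read from its single-symbol probe set of highest mean; genes under the 40th percentile of mean level were left out, leaving 10916 of 18193. limma 3.58.1 in R 4.3.3 (lmFit, eBayes with trend) gave two-sided p-values, Benjamini-Hochberg adjusted over all tested genes, threshold 0.05; the fit was tested on simulated data. Equal numbers pair arrays: the submitters describe 4 independent experiments, and deviations of same-numbered arrays correlate at 0.49 to 0.68, against 0.12 to 0.48 for other pairs within a replicate set, so part of this is shared by the set; the fit with the replicate block is given beside. Named genes: all members, with array values for those separated or called, and in each other list up to 4 genes called with or without the block, by size of difference, otherwise the 2 of smallest p. Dpysl3, Map2, Ncam1, Syt11 and Chga were given array values, and the cell type markers named, after their values were seen. Alternatives: pseudocount, centring, quantile normalization, filter, mean of probe sets, trend, blocks, replicate sets apart, each array left out.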

Additional observations from a re-analysis of the deposited data

How the results depend on the processing

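The number of members called between Bmi1 and Control, 3 without a block, was 5 with a pseudocount of 16, 1 with centring on all probe sets, 1 with quantile normalization, 1 without the filter, 9 with the replicate block, 9 with the replicate set as a block, 0 within replicates 1 and 2 and 0 within replicates 3 and 4, and 0 to 2 with single arrays left out. Neural genes outside the set, 0 called, gave 1 without centring, with centring on all probe sets, with the mean of probe sets and without the trend, 4 with the replicate block and 3 with the replicate set as a block. The members called between replicates 1 and 2 and replicates 3 and 4, 6 in number, were 11 with centring on all probe sets, 3 with the group left out of the model, 3 on the mean of the 2 arrays of each experiment (added after seeing the data) and 3 to 6 with single arrays left out. The members' median log2 difference stayed between 0.47 and 0.79 under all alternatives, and no called value changed sign. The block combined with the other settings, chosen after seeing the data, gave 3 to 10 members and 2 to 8 other neural genes. Precision is limited by 4 arrays per group and, for the 14 untested members, by signals near background.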
